A study of Mus musculus with 768 samples.

Results

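Cd226, Tigit and Cd96 encode DNAM-1, TIGIT and CD96, 3 NK-cell receptors for nectin and nectin-like ligands, and they were followed here in single NK cells isolated from tumors. The 3 genes were taken by symbol from the 24490 gene entries of the expression tables, and each symbol had 1 entry. The tumors were grown from MTAP1A, a mouse fibrosarcoma line without Tap1, the peptide transporter needed to load MHC class I, and so with low MHC class I. Tumors grew in C57BL/6 WT mice or in PD-1-/- mice on the C57BL/6 background, whose Pdcd1 allele lacks exons 3 and 4 in every cell, and the recipients were males of 8 to 12 weeks. For each genotype the tumors of 3 mice were pooled, viable NK1.1+ CD3- cells were sorted, and SMART-SEQ2 was run on 1 plate, 768 wells in all. Wells with 1000 to 3500 detected genes were kept, which left 726 cells, 360 from the WT plate and the rest from the PD-1-/- plate. A gene was called detected in a cell when its RPKM (reads scaled to transcript length and sequencing depth) was above 0.

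DNAM-1 is an activating receptor of NK and T cells that recruits kinases and works with the integrin LFA-1 at the contact with a target cell. TIGIT and CD96 bind ligands that DNAM-1 also uses, above all CD155, the product of Pvr. TIGIT carries inhibitory motifs in its cytoplasmic tail and binds CD155 more tightly than DNAM-1 does, so that the receptors compete for the same ligand. CD96 also binds CD155 and has mostly been described as inhibitory on mouse NK cells. In the mouse genome (RefSeq, GRCm38.p6) Tigit lies at chr16:43626137-43665125 and Cd96 at chr16:46035652-46120248, both on the minus strand. Cd226 lies at chr18:89176954-89272232 on the plus strand, and GENCODE vM21 gives it 7 coding transcripts of 408 to 4494 nucleotides, against 1 each for Tigit and Cd96.

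Each genotype was 1 pool of tumors on 1 plate, so that genotype, pool and plate cannot be told apart, no test between genotypes was possible, and the 95% exact binomial intervals given with shares cover counting error only. The cells had a median of 2264.5 detected genes on the WT plate and 2262.5 on the PD-1-/- plate, and the median of the reads that could be recovered from the RPKM steps was 349812 and 375194. All 8 genes of the NK list, among them Ncr1, Klrb1c and Eomes, were detected in more than 50% of the cells of both plates. Transcripts of a CD3 chain (Cd3d, Cd3e or Cd3g), which mark T cells but also occur in some NK and innate-like cells, were found in 65 WT cells (18.1%) and 83 PD-1-/- cells (22.7%) despite the CD3- gate, and their part in the results was not tested beyond leaving them out. No gene of the list of 10 T-cell markers was detected in more than 17% of cells of either plate, Themis was at 0 on the WT plate, and the summed mean of the list was 247.9 RPKM for WT and 399.2 RPKM for PD-1-/- cells. On the WT plate they were concentrated near 1 edge, making up 52.6% of the 38 cells from rows A and B and 13.98% of the others. On the PD-1-/- plate the larger value was that of rows C to P, 23.1%. Rows A and B of the WT plate thus stood apart, and the marker contrasts described that move by over 1.5-fold without them are given both ways. Pdcd1, the deleted gene, was detected in 9 WT and 47 PD-1-/- cells, and since RPKM per gene does not separate exons, it does not check the labels.

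Cd226 was the member whose share of cells differed most between the plates. Of 360 WT cells, 69 had it, 19.2% (15.2 to 23.6). On the PD-1-/- plate the share was 36.1% (31.1 to 41.2). The PD-1-/- share was higher by 16.9 percentage points. The 2 intervals did not overlap, but how often this held among all genes was not counted. In WT cells with Cd226 the level ranged from 0.978 to 734.0 RPKM with a median of 144.9, and in PD-1-/- cells with Cd226 from 1.17 to 960.5 RPKM with a median of 162.7. The levels of cells that had the transcript therefore overlapped over nearly their whole range, and the plates differed mainly in how many cells had it. Over all cells the mean was 33.2 RPKM in WT and 68.5 RPKM in PD-1-/- cells, a log2 ratio of 1.03.

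Tigit was the most widely detected of the 3 and the most abundant by RPKM. Its share was 57.5% (52.2 to 62.7) for WT and 61.7% (56.6 to 66.8) for PD-1-/- cells. Cells with Tigit ranged from 3.65 to 3750 RPKM with a median of 537 in WT, and from 2.08 to 3244 RPKM with a median of 584 in PD-1-/- mice. The intervals of the shares and the ranges of the levels overlapped, and the log2 ratio of the means (382 and 422 RPKM) was 0.14. The share of Cd96 was 43.3% (38.1 to 48.6) on the WT plate and 37.2% (32.2 to 42.3) on the PD-1-/- plate. Its levels in positive cells ran from 1.02 to 1157 RPKM in WT and from 0.917 to 2170 RPKM in PD-1-/- cells, with medians of 320 and 311.1. Here too intervals and ranges overlapped, and the log2 ratio of the means (151.8 and 137.4 RPKM) was -0.14, the opposite direction to that of Tigit.

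**Figure D1:**
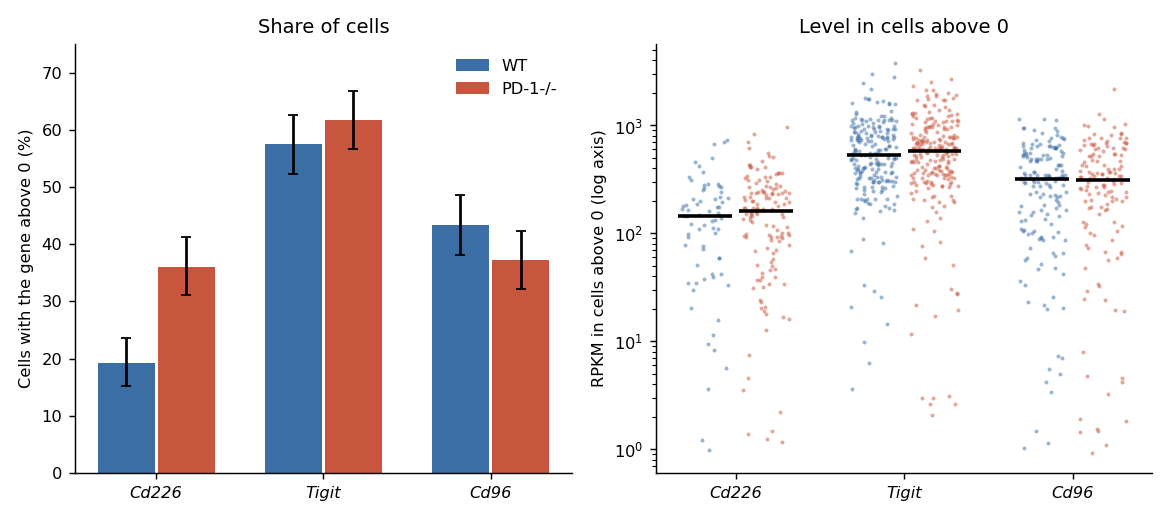
Share of cells with each member above 0 (left, percent, with 95% exact binomial intervals) and RPKM of each cell above 0 (right, log axis, black line at the median) for the 726 kept cells. The Cd226 bars stand at 19.2% and 36.1%, while the clouds of levels overlap for all 3 genes.

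Most positive cells rested on more than a few reads. Recovered reads in cells with Tigit had a median of 164.5 on the PD-1-/- plate and a little less on the WT plate, and at least 10 reads were present in 94.2% and 92.9% of them. For Cd96 the corresponding shares were 91.03% and 90.4%, and for Cd226 they were 86.96% and 90.9%. The median of recovered reads in positive cells was higher for Cd96 than for Tigit on both plates, the reverse of their order by RPKM. Reads of Cd226 are approximate, because only 40 of its 81 values under 60 reads were whole multiples of 1 step, while all 71 of Tigit and all 67 of Cd96 were. When each cell was thinned to 100000 recovered reads, which left out 22 WT and 14 PD-1-/- cells, the share of Cd226 was 18.6% for WT and 35.2% for PD-1-/- cells, with 58.6% and 60.5% for Tigit and 42.01% and 34.9% for Cd96. The shares thus moved by at most a few points when recovered reads were made equal, a number that depends on the limits of the recovery.

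Against all genes, 1 of the 3 members was at least 2-fold higher in PD-1-/- cells and none was at least 2-fold lower. Of the 12030 genes whose mean reached 1 RPKM in either genotype, 4.71% were at least 2-fold higher and 7.34% at least 2-fold lower in PD-1-/- cells, with a median log2 ratio of -0.03. Cd226 lay just past the 2-fold line at a ratio of 2.04, so that small shifts carry it across: its log2 ratio was 0.78 for the upper rows (A to H) and 1.32 for the lower rows (I to P).

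**Figure D2:**
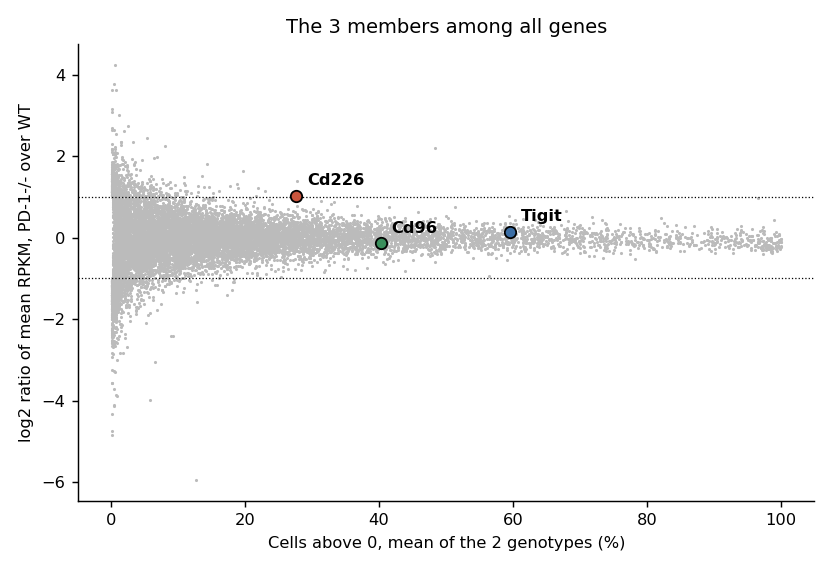
Log2 ratio of mean RPKM (PD-1-/- over WT, pseudocount 1 RPKM) against the share of cells with the gene (percent, mean of the genotypes) for 12030 genes (grey), with 2-fold lines dotted. Cd226 lies at 1.03, Tigit at 0.14 and Cd96 at -0.14.

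The labels gave the row and column of each well. Cd226 was higher on the PD-1-/- plate in both blocks of rows, with 18.5% and 35.9% for the upper rows and 19.8% and 36.3% for the lower ones. Rows A and B of the WT plate reached 39.5% (24.04 to 56.6), close to the 42.2% (27.7 to 57.8) of the same rows on the PD-1-/- plate. Without those rows the difference between the plates was 18.4 percentage points. Tigit did not keep a direction between the blocks, with 60.1% (WT) and 58.7% (PD-1-/-) for the upper rows, and 54.9% and 64.8% for the lower ones. Cd96 was lower on the PD-1-/- plate in both blocks of rows by share, at 42.1% and 38.6% and then at 44.5% and 35.7%, but its log2 ratio of means was 0.11 for the upper rows and -0.44 for the lower ones. Divided by columns, a division chosen after seeing the data, Cd226 was detected in 21.5% and 36.96% for columns 1 to 12 and in 16.8% and 35.2% for columns 13 to 24. For Cd96 these shares were 41.4% and 41.8%, then 45.3% and 32.4%, so that its difference of -6.17 percentage points lay in columns 13 to 24.

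**Figure D3:**
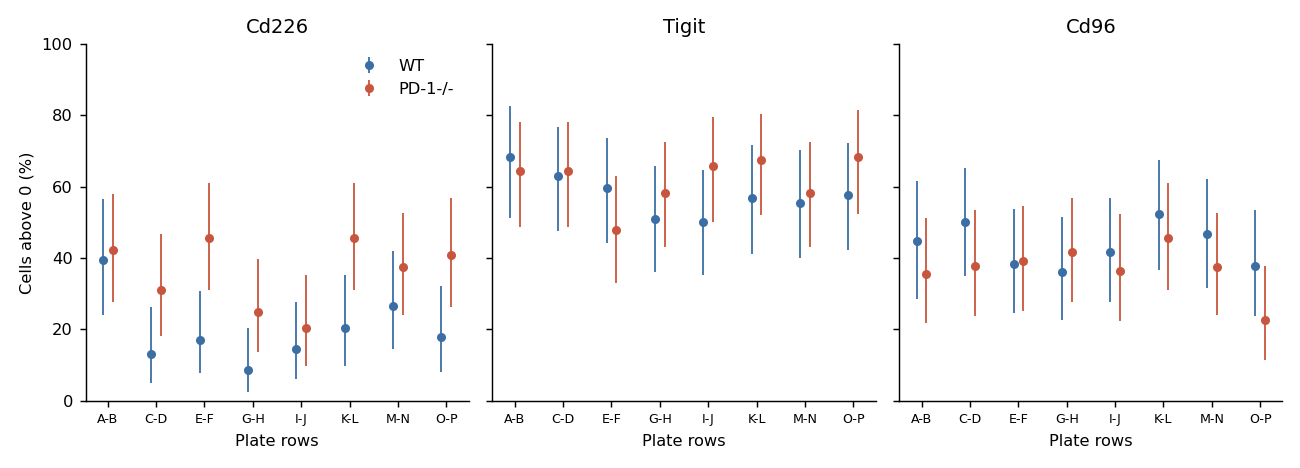
Share of cells with each member (percent, 95% exact binomial intervals) in 8 consecutive pairs of plate rows. Cd226 on the WT plate was highest in rows A and B, at 39.5%, and lay below the PD-1-/- plate in all 8 pairs, while Tigit and Cd96 crossed.

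Cells with at least 1 member made up 78.3% (73.7 to 82.5) of the WT plate, against 83.3% (79.1 to 87.005) of the PD-1-/- plate. Cells that combined Cd226 with Tigit or Cd96 made up 14.7% (11.2 to 18.8) of the WT plate, against 27.05% (22.6 to 31.9) on the PD-1-/- plate. Cells with Cd226 and neither inhibitory member made up 4.44% (2.56 to 7.12) and 9.02% (6.29 to 12.4). Cells with Tigit or Cd96 and no Cd226 were the largest class on both plates, at 59.2% (53.9 to 64.3) and 47.3% (42.1 to 52.5). The classes with Cd226 were thus larger, and the class with inhibitory members alone smaller, on the PD-1-/- plate.

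Detection of the activating member said little about detection of the inhibitory ones. On the WT plate an inhibitory member accompanied Cd226 in 53 of the 69 cells that had it, 76.8%, and was present in 73.2% of the cells without Cd226. On the PD-1-/- plate these shares were 75% and 73.9%. If the 3 genes were detected independently of each other, the product of their single shares would put 52.4 WT and 100.3 PD-1-/- cells in the class with Cd226 and an inhibitory member, and 53 and 99 were found. Among the 8 combinations, the one furthest below its product in both genotypes was Cd96 alone, with 41 WT cells against 53.6 and 23 PD-1-/- cells against 33.3. The odds ratio of detecting Tigit and Cd96 in the same cell was 1.40 in WT and 1.35 in PD-1-/- cells, and 1.41 and 1.58 after thinning. For Cd226 and Tigit it was 0.71 and 0.76, and for Cd226 and Cd96 1.45 and 1.16. The values of these pairs thus went in opposite directions, which the class with either inhibitory member pools. No interval was computed for the odds ratios, and the shares of a member with and without the other had overlapping intervals for all 3 pairs. Without CD3 cells the odds ratio of Cd226 with Tigit was 0.55 in WT and 0.88 in PD-1-/- cells. With Cd96 it was 1.56 and 1.01. The PD-1-/- value of Cd226 with Tigit stayed between 0.63 and 0.92 in 12 alternatives. Both WT values with Cd226 depended on the plate rows: with Tigit the odds ratio was 1.41 for the upper rows, 0.38 for the lower ones and 0.47 without rows A and B, and with Cd96 it was 0.74 and 2.68 for the 2 blocks. The PD-1-/- value of Cd226 with Cd96 was 1.40 for columns 1 to 12 and 0.92 for the rest.

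**Figure D4:**
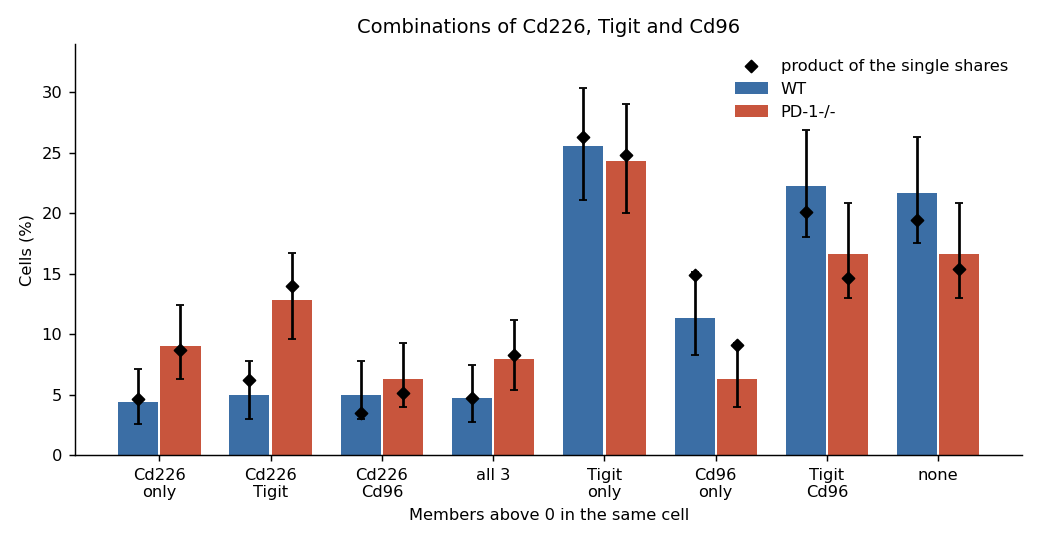
Share of cells (percent, 95% exact binomial intervals) with each of the 8 combinations of the members above 0, with diamonds at the product of the single shares. All 4 combinations with Cd226 are larger on the PD-1-/- plate, and every diamond lies within its interval, that of Cd96 alone near the upper end on both plates.

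Within single cells the inhibitory transcripts were usually the more abundant, on the RPKM scale, which corrects for transcript length (the length used for Cd226, with its several transcripts, is not given in the sources used here). Among cells with any member, Tigit was the highest in 61.7% (55.8 to 67.4) on the WT plate, and in 62.3% (56.6 to 67.8) on the PD-1-/- plate. Cd226 was the highest in 8.51% (5.53 to 12.4) and 15.7% (11.8 to 20.3), and Cd96 in 29.8% (24.5 to 35.5) and 21.97% (17.4 to 27.04). An undetected member can never be the highest, so that this ranking partly restates the shares of cells with each member. In cells that had both, Cd226 exceeded Tigit in 4 of 35 (WT) and 11 of 76 (PD-1-/-). It exceeded Cd96 in 9 of 35 (WT) and 19 of 52 (PD-1-/-). The level of Tigit was similar whether or not Cd226 was present, with medians of 477 and 559 RPKM in WT and 509 and 611 RPKM in PD-1-/- cells and wide overlap of the quartiles.

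Cd226 was unevenly spread over marker-defined cells. Counting markers held by at least 10 cells of a plate, the intervals with and without the marker were apart for 2 of 10 on the WT plate, Cxcr6 and Itga1, and for 7 of 11 on the PD-1-/- plate. How often this held among all genes was not counted. The markers were held by unequal numbers of cells on the plates, which changes the width of the intervals, so that these counts do not rank the plates. Cxcr6, a chemokine receptor of tissue-resident lymphocytes, marked 28 WT and 77 PD-1-/- cells. Of the 28 WT cells with Cxcr6, 14 had Cd226, an interval of 30.6 to 69.4%, against 16.6% (12.7 to 21.01) without Cxcr6. Of the 77 PD-1-/- cells with Cxcr6, 49 had Cd226, 63.6% (51.9 to 74.3), against 28.7% (23.6 to 34.3) without it. Thinned in the same way, the shares were 47.6% and 16.7% for WT and 63.2% and 28.5% for PD-1-/- cells. Without CD3 cells the contrast was as large, since 6 of 10 WT cells with Cxcr6 and 29 of 44 such PD-1-/- cells had Cd226. Itga1, which encodes CD49a, another marker of tissue residency, gave 39.6% and 16.03% in WT and 51.1% and 31.2% in PD-1-/- cells, and the WT contrast of 23.6 percentage points fell to 15.1 without rows A and B, and was 33.2 for columns 1 to 12 and 11.99 for columns 13 to 24. Gzmc, a granzyme of activated killer cells, gave 27.6% (19.7 to 36.7) and 15.2% (10.9 to 20.3) in WT, with overlapping intervals, and 55.95% and 30.1% in PD-1-/- cells. S1pr5, a receptor that lets mature NK cells leave tissues, went the other way, with Cd226 shares of 11.1% (with) and 21.5% (without) for WT, and 21.5% and 41.03% for PD-1-/- cells. By columns the WT contrast for S1pr5 was -3.86 percentage points for 1 to 12 and -17.9 for 13 to 24. Detected genes also differed with and without the marker, with medians of 2536 and 2188 (WT) and 2498.5 and 2154 (PD-1-/-) for Gzmc. For Itga1 these medians were 2595.5 and 2244, then 2404 and 2197. For S1pr5 they were 2247 and 2278, then 2074 and 2330.

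Differences between the plates in these contrasts were not tested. Eomes, a transcription factor of conventional NK cells, hardly separated Cd226 in WT cells, with 17.9% (13.1 to 23.6) of cells with it and 21.2% (14.7 to 28.97) of cells without it. On the PD-1-/- plate Cd226 was detected in 27.7% (21.7 to 34.4) of cells with Eomes and in 46.3% (38.5 to 54.3) of cells without it. Without rows A and B the WT contrast for Eomes was 0.16 percentage points. Mki67, a gene of cycling cells, went with Cd226 in 22 of 31 PD-1-/- cells, 70.97% (51.96 to 85.8), against 32.8% of the others, and in 5 of 17 WT cells, 29.4% (10.3 to 55.96), against 18.7%. In PD-1-/- cells this contrast was 61.7 percentage points for the upper rows and 18.4 for the lower ones, and in WT cells it went from 10.8 to 20.3 without rows A and B and to 23.9 after thinning, so that it had the same direction on both plates. Cd226 was detected in 32 of the 47 PD-1-/- cells with Pdcd1, 68.1% (52.9 to 80.9), against 31.3% of those without it, and in 5 of the 9 WT cells with it, all of which lay in rows A and B. Only 1 of these 9 WT cells had no CD3 transcripts. Of the 47 PD-1-/- cells 30 had none, and 22 of those 30 had Cd226.

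For Tigit and Cd96 the intervals were apart for none of the 10 markers in WT cells, and for 2 of 11 each in PD-1-/- cells, Xcl1 and Mki67 for Tigit, and Itga1 and Xcl1 for Cd96. Here too the share among all genes was not counted. With and without Cxcr6, the Tigit share was 64.3% and 56.9% for WT and 54.5% and 63.7% for PD-1-/- cells, with overlapping intervals. Neither direction was stable, since the WT contrast was -13.96 percentage points without rows A and B, and the PD-1-/- contrast was -23.5 for the upper rows and 1.42 for the lower ones. With and without Mki67 the Tigit share was 41.2% and 58.3% for WT, a contrast that went from -17.1 to -29.96 percentage points without rows A and B, and 38.7% and 63.9% for PD-1-/- cells. Klrg1, a receptor of mature NK cells, had a Tigit contrast of -15.9 percentage points in PD-1-/- and 5.92 in WT cells. With and without Itga1, the Cd96 share was 50% and 33% on the PD-1-/- plate, a contrast of 17.03 percentage points that stayed between 13.9 and 20.2 in the alternatives run, against 5.29 on the WT plate. With and without Xcl1, a chemokine of NK cells, the Cd96 share was 46.4% and 32.9% in WT and 42.2% and 25.5% in PD-1-/- cells, and the Tigit share 60.4% and 47.6%, then 66.8% and 50%. Cells with Xcl1 also had more detected genes, with medians of 2288.5 and 2155.5 in WT and 2369.5 and 1953 in PD-1-/- cells. After thinning, the Cd96 shares with and without Xcl1 were 45.6% and 30.4% for WT and 41.2% and 21.9% for PD-1-/- cells.

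**Figure D5:**
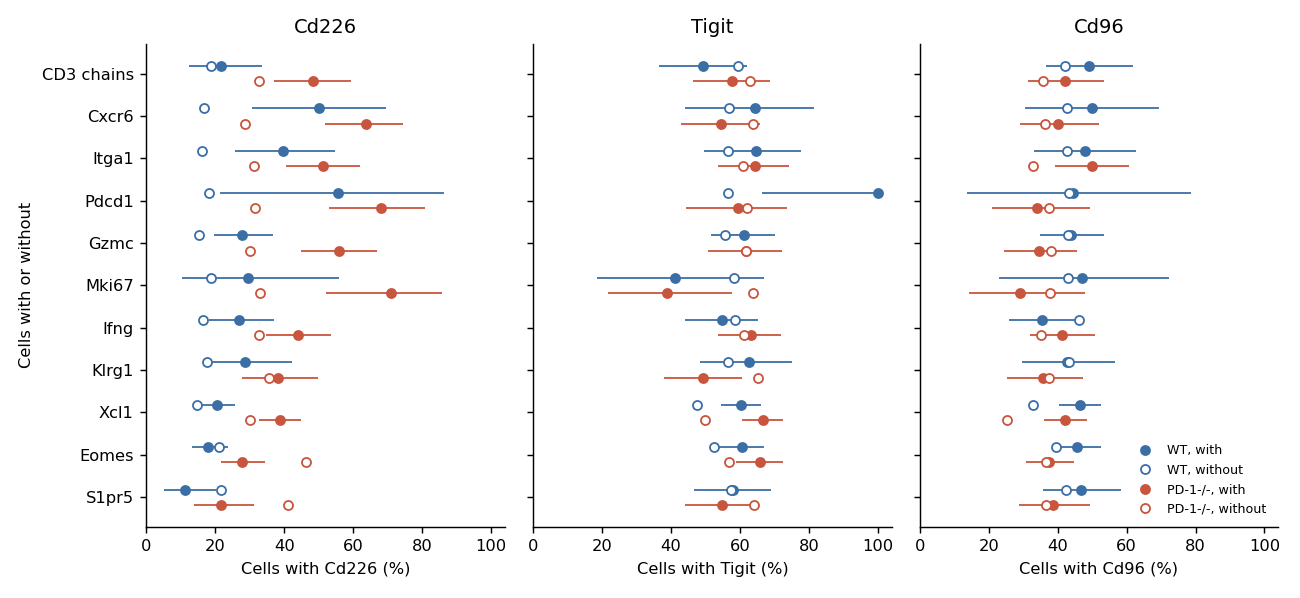
Share of cells with each member (percent) among cells with (filled, 95% exact binomial interval) and without (open) each marker, in WT and PD-1-/- cells. Cd226 lies far higher in cells with Cxcr6 on both plates, 50% and 63.6%, and in PD-1-/- cells its filled and open points lie the furthest apart of the 3 members for 9 of 11 markers, against 5 of the 10 held by at least 10 cells on the WT plate.

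Cells with Cxcr6, in which Cd226 was frequent on both plates, were more numerous on the PD-1-/- plate. In cells with CD3 transcripts the share of Cd226 was 21.5% for WT and 48.2% for PD-1-/- cells. Among cells with neither CD3 transcripts nor Cxcr6, the share of Cd226 was 17.2% (12.998 to 22.1) for WT and 26.4% (20.9 to 32.4) for PD-1-/- cells, a difference of 9.17 percentage points with overlapping intervals, and the log2 ratio of means was 0.58. Without CD3 cells alone the shares were 18.6% and 32.5%. With PD-1-/- cells weighted to the WT proportions of cells with and without CD3 transcripts and Cxcr6, the Cd226 share was 30.95%, against 19.2% in WT. The difference between the plates was smaller than over all cells in cells with neither CD3 transcripts nor Cxcr6, and after the weighting. Cells with both gave Cd226 shares of 44.4% for WT and 60.6% for PD-1-/- cells. Cells with Cxcr6 and no CD3 transcripts gave 60% and 65.9%, closer together than in cells with neither, but only 10 WT cells were of this kind. Whether the number of cells with Cxcr6 or CD3 transcripts accounts for any of the difference was not tested. In cells with CD3 transcripts and no Cxcr6, 47 WT and 50 PD-1-/- cells gave shares of 12.8% and 40%.

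The genes whose RPKM followed Cd226 most closely across cells, by the lower of the rank correlations in the 2 genotypes among 6404 genes detected in at least 10% of cells of both, were S100a4, Klrc1 and Inpp4b. For S100a4, a calcium-binding protein, Spearman's rho was 0.31 over the WT and 0.32 over the PD-1-/- cells. Klrc1, which encodes the inhibitory receptor NKG2A, had 0.30 and 0.27, and Inpp4b, a phosphoinositide phosphatase, 0.22 and 0.22. With Klrc1, 28.4% (22.2 to 35.1) of WT cells had Cd226, and without it 7.55% (3.96 to 12.8). The PD-1-/- shares were 45.1% (38.8 to 51.6) and 17.5% (11.2 to 25.5). Klrc1 was picked by its correlation in these same cells, so that this split restates the correlation and adds no separate evidence. Tigit was followed most closely by Serpinb6b, Sh2d2a and Ctla2a, with rho of 0.20 to 0.25, and Cd96 by N4bp2l1, Kat7 and Xcl1, with rho of 0.14 to 0.16, which in sparse single-cell values is a description only. These cells share a plate and differ in depth, and rho between Cd226 and the number of detected genes was 0.17 and 0.18.

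The ligands were detected in few of the sorted cells. Pvr, which encodes CD155, had a share of 5.28% (3.21 to 8.12) on the WT plate and 6.28% (4.02 to 9.28) on the PD-1-/- plate. Pvrl1, Pvrl2, Pvrl3 and Pvrl4, the nectin genes, were each found in at most 3 cells of a plate. All 6 genes listed as activating partners were detected in at least 5% of cells and none was past 2-fold in either direction, with log2 ratios from -0.45 for Fyn, a kinase downstream of DNAM-1, to 0.50 for Grb2, an adaptor. The subunits of LFA-1, Itgal and Itgb2, were present in 86.9% and 93.3% (WT) and 86.6% and 93.2% (PD-1-/-) of cells. All 5 inhibitory partners were likewise within 2-fold. Their log2 ratios ran from -0.43 for Ptpn11, which encodes the phosphatase SHP-2, to 0.20 for Ptpn6, which encodes SHP-1. Of the 12030 genes compared above, only 4.71% were past 2-fold upward and 7.34% past 2-fold downward in PD-1-/- cells. Lists of 6 and 5 genes are therefore too short for these counts to set the partners apart from other genes. Inpp5d, the phosphatase SHIP1 that TIGIT recruits, was detected in 66.7% and 66.1% of cells.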

How the data were processed

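Cells were sorted from pooled MTAP1A tumors and profiled by SMART-SEQ2. The authors deposited 1 table per plate of RPKM values per gene and well. The submitters' processing notes name TopHat, Cufflinks and the builds mm9 and mm10, without their roles or versions. Each well was assigned to its genotype by its label. No column was left unused. Wells with 1000 to 3500 genes above 0 were kept, counting genes above 0 in at least 3 wells.

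Shares carry 95% Clopper-Pearson intervals. Ratios are log2 of mean RPKM with a pseudocount of 1, which understates the change of low genes. With 1 pool per genotype no test was run. Members, markers and gene lists were chosen with earlier results of these data known. Named genes were the members, their listed ligands and partners in at least 5% of cells, and the 3 genes with the highest rank correlation to each member. Pvrig, listed as a related receptor, had no entry under that symbol and so could not be analysed.

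Whole reads were recovered from the RPKM steps for 10608 genes, and 96.4% of their values below 60 reads came out whole (relative tolerance 0.0003). The limits of this step were chosen after seeing the data: several were tried in turn with the results in view. The step was tested on simulated data with known reads, and its first test failed. A stricter rule for choosing steps, kept in use, barely changed this, and the test passed only after the simulated counts were made more dispersed, to hold as many single reads as the deposited values seem to. The closing section gives the thinned Cd226 shares under all of the limits. The ratio of means and the odds ratio were tested on simulated data. Python 3.11.15, numpy 2.4.6, pandas 2.3.3, scipy 1.17.1 and matplotlib 3.10.9 were used.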

Additional observations from a re-analysis of the deposited data

Results flagged for a closer look

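Wells outside the limits of 1000 to 3500 genes entered no comparison, and some held the members. Of 16 WT wells above 3500 genes, which can hold more than 1 cell, Cd226 was detected in 43.8%, Tigit in 68.8% and Cd96 in 56.2%. Of 14 such PD-1-/- wells, Cd226 was detected in 71.4%, Tigit in 64.3% and Cd96 in 78.6%. Of 8 WT wells below 1000 genes, Cd226 and Cd96 were each detected in 12.5%, that is in 1 well, and Tigit in 0 of 8, which allows a share of up to 37.5% (3 counts of 8). Wells P23 and P24 of both plates, which looked empty with far fewer than 1000 detected genes, held none of the 3.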

How the results depend on the processing

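No paired analysis was possible because each genotype was 1 pool on 1 plate and no result came from a test. Of the alternative values of shares, differences, ratios and odds ratios, 17 left the interval of the share or moved past 1.5-fold and are given here, and 10 did among marker-defined cells. The Cd226 difference kept its direction in all 19 alternatives, from 9.17 to 18.4 percentage points. Chosen after seeing the data, leaving out cells with Cxcr6 put the PD-1-/- share of Cd226 at 28.7%, leaving out those with CD3 transcripts as well put it at 26.4% and the difference at 9.17, and weighting to the WT makeup put the difference at 11.8. The Cd96 difference was 0.41 for columns 1 to 12 and -12.8 for columns 13 to 24, a division also chosen after seeing the data. The Tigit difference was -1.42 for the upper rows (A to H) and 9.89 for the lower rows (I to P). In WT cells the odds ratio of Cd226 with Tigit was 1.41 for the upper rows, 0.38 for the lower ones and 0.47 without rows A and B, and with Cd96 it was 0.74 and 2.68 for the 2 blocks. The cause was not tested. Genes at least 2-fold higher were 1.42% of those whose mean reached 10 RPKM and 2.32% with no filter, and genes at least 2-fold lower 1.29% and 3.61%. Thinned under the 5 limits of the read recovery, the Cd226 share ran from 18.6% to 19.5% (WT) and from 34.7% to 35.8% (PD-1-/-), while the median of recovered reads ran from 303292 to 866326 in WT cells, so that read numbers depend on these limits and the shares little.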
